A study of Mus musculus with 3 samples.

Results

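The genes described here encode RNA polymerase II (Pol II) subunits, the factors that hold it in a pause or release it into elongation, and Mediator. The list was given by symbol, and identifiers in the gene tables were turned into symbols through the transcript names of the same libraries. All 41 genes were found in each of the 3 libraries, among 55536 genes in the table and 22028 protein-coding genes. The libraries hold total RNA of the chromatin fraction, depleted of ribosomal RNA, of bone marrow-derived macrophages (BMDM) of C57BL/6J mice. Cells had 100 ng/ml Lipid A for 12 h, then 12 h of washout, then 100 ng/ml Lipid A for a further 20 min. Lipid A is the part of bacterial lipopolysaccharide that the receptor TLR4 recognises, and all libraries carry the same exposure. There is 1 group and no untreated group, so the values describe levels and their spread, and nothing can be said of a response to Lipid A. The age and sex of the mice were not collected, per the labels.

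Transcription of most protein-coding genes stalls soon after it starts, when DSIF and NELF hold Pol II near the promoter. The kinase P-TEFb releases the pause by phosphorylating DSIF, NELF and the tail of the polymerase, and the 7SK ribonucleoprotein keeps P-TEFb inactive until it is needed. Mediator passes signals from enhancers to the polymerase, and in macrophages many inflammatory genes are known to depend on pause release and on BET bromodomain proteins, which bring elongation factors to acetylated chromatin. RNA bound to chromatin is rich in transcripts still being made, so the levels below are of chromatin RNA, not of cytoplasmic mRNA or of protein.

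The expected counts on genes were 13610746, 24105317 and 16517065 in replicates 1, 2 and 3, and the members took 59817, 96076 and 66446 of them. The starting RNA was 1 µg, 250 ng and 500 ng in the same order. Every library bears its own biological replicate number but the donor entry is shared, so part of the spread between libraries may be technical. All 8 macrophage markers were at 1 TPM (a unit scaled for transcript length and library size) or more in every library, with sums of 862 to 1061 TPM and levels from 33.9 ± 7.76 TPM for Itgam to 334 ± 54.4 TPM for Adgre1 (SD, n = 3). The highest markers of other cells were Pecam1 of stroma at 1.62 TPM, Zbtb46 of dendritic cells at 1.41 TPM and Ngp of neutrophils at 0.81 TPM. Those of T and NK cells (Cd3g), B cells (Ms4a1), erythroid cells (Klf1) and mast cells (Ms4a2) were at or below 0.12 TPM. In the second quantification of the same libraries some were higher. Cd3d, a T cell gene at 0.020 TPM in the first, had 14.0 ± 1.44 TPM, and Pecam1 had 9.50 ± 2.00 TPM. Zbtb46 had 2.53 TPM, Siglech of dendritic cells 2.26 TPM and Col1a1 of stroma 1.62 TPM. Cd3g had 1.09 TPM, Ms4a1 1.04 TPM and Ngp 1.02 TPM. The median of the dendritic cell markers was 1.59 TPM there, against 0.13 TPM in the first. Ly6g, S100a8, Ncr1, Klrb1c, Hbb-bs, Cpa3 and Mcpt4 were at 0 in every library of the first quantification. All 8 macrophage markers were at 1 TPM or more in both quantifications.

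All members were detected. Each of the 41 had at least 1 TPM in every library, against a background of 45.2% of protein-coding genes, and the lowest count of any member in a library was 85. The median member had 25.1, 22.0 and 25.8 TPM in replicates 1, 2 and 3, against 0.68, 0.55 and 0.70 TPM for the median protein-coding gene. On the log2(TPM + 1) scale, averaged over libraries, the members' median was 4.60 and that of protein-coding genes was 0.72, a difference of 3.88. Taken within each library, the difference of medians was 3.96, 3.89 and 3.98 in replicates 1, 2 and 3, with an SD of 0.046. Much of that distance lies in genes that were barely detected. Of protein-coding genes 10465 averaged 1 TPM or more. Their median was 10.9 TPM, and 35 of the 41 members were above it. Members lay between the percentiles 65.6 (Larp7) and 99.3 (Brd2) of all protein-coding genes.

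Grouped by role, the members spanned a wide range. The BET group holds only Brd2 and Brd3, whose median of 118 ± 29.9 TPM rests on Brd2 (225 TPM, with Brd3 at 10.2 TPM). The median of P-TEFb was 100 ± 21.8 TPM, and the libraries of these groups overlapped, as did those of P-TEFb and the next group. The super elongation complex (57.3 ± 21.6 TPM) and CDK12, CDK13 and cyclin K (56.1 ± 7.34 TPM) came next and overlapped one another. The Mediator kinase module followed at 38.5 ± 7.11 TPM, and CDK7 at 26.8 ± 4.81 TPM, overlapping the groups on either side. Medians of SPT6 and FACT (23.0 ± 1.26 TPM), Pol II (20.6 ± 7.43 TPM), core Mediator (18.5 ± 2.29 TPM), DSIF and NELF (16.5 ± 3.36 TPM) and the PAF1 complex (13.7 ± 2.63 TPM) formed a run in which each neighbour overlapped the next. The regulators of 7SK were lowest at 7.04 ± 1.99 TPM, and their highest library (8.30 TPM) was below the lowest library of the PAF1 complex (10.7 TPM). That place was lost in coding transcripts alone, an alternative chosen after seeing the data, where the 7SK regulators had a median of 6.09 TPM, against 5.96 TPM for the PAF1 complex, 5.74 TPM for Pol II and 4.56 TPM for CDK7. Each value is the mean and SD over 3 libraries.

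**Figure D1:**
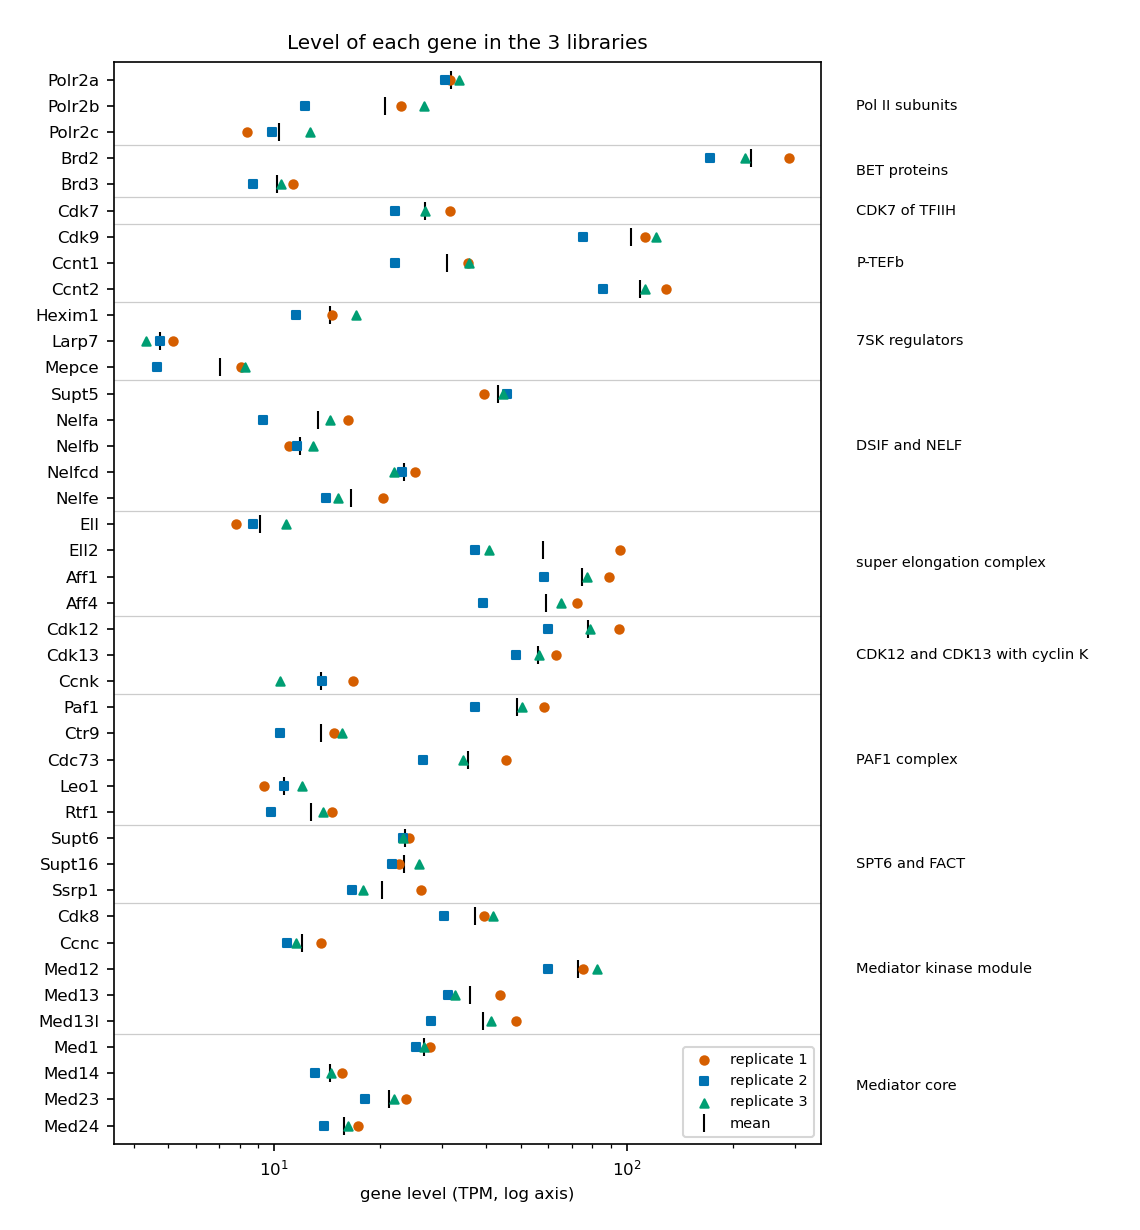
Gene level in TPM (log axis) of each of the 41 members, grouped by role, with 1 point for each library and a bar at the mean of 3 libraries. Brd2 lies farthest to the right with 172 to 288 TPM, Ccnt2 and Cdk9 come next with all values at or above 75.2 TPM, and Larp7 lies farthest to the left with 4.34 to 5.18 TPM. All values are of the first quantification.

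The largest Pol II subunit had the highest level of the 3 Pol II members. Polr2a, which encodes the catalytic subunit with the repeated C-terminal tail, had 31.5, 30.6 and 33.5 TPM in replicates 1, 2 and 3. Polr2b, the other large subunit of the active centre, had 23.0, 12.3 and 26.6 TPM, so replicate 2 was well below the others. Polr2c, a subunit of the assembly core, had 8.39, 9.88 and 12.6 TPM and overlapped Polr2b only through its highest library. Among 10 further Pol II subunits, 9 reached 1 TPM in every library, and their median was 4.23 TPM, with Polr2i highest at 6.69 ± 1.08 TPM and Polr2h lowest at 1.14 ± 0.35 TPM (SD, n = 3). Every one of those 10 was therefore below Polr2c in mean TPM.

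Brd2 had the highest level of all members when every annotated form was counted. Its coding forms alone had 44.3, 20.9 and 34.9 TPM (mean 33.3 ± 11.8), below the means of Cdk12 (51.9 ± 14.0), Cdk9 (51.8 ± 10.2), Aff1 (38.0 ± 9.58) and Med12 (33.7 ± 1.32), though its libraries overlapped those of each. This BET protein, which binds acetylated histones, had 288, 172 and 216 TPM in replicates 1, 2 and 3, from 4415, 6003 and 4409 counts. Brd3, its relative, had 11.3, 8.70 and 10.5 TPM. The log2 ratio of Brd2 to Brd3 was 4.67, 4.30 and 4.36, a mean of 4.45 ± 0.19, or 21.8 fold. In coding transcripts alone the log2 ratio was smaller at 2.18. Brd2 (chr17:34112023-34122634, mm10, minus strand) shares 360 exon bases with H2-DMa on the other strand, which had 15.8 ± 5.40 TPM, and 405 with an antisense gene at 5.04 ± 2.57 TPM. Whether the counting used strand is not stated in these sources, so reads of these genes may not have been told apart.

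With every annotated form counted, P-TEFb genes were high and the genes of its 7SK inhibitor were low. Cdk9, the P-TEFb kinase, had 113, 75.2 and 121 TPM in replicates 1, 2 and 3. Ccnt2, one of its cyclin partners, had 129, 86.0 and 113 TPM, and its 6166, 8782 and 6411 counts were the most of any member. Ccnt1, the other cyclin partner, had 35.4, 22.0 and 35.7 TPM, below Ccnt2 in every library. The log2 ratio of Ccnt1 to Ccnt2 was -1.86, -1.96 and -1.66 (mean -1.83 ± 0.16), and in the second quantification it was -0.72. The 7SK side had lower values throughout when every annotated form was counted. Hexim1, the protein that binds and inhibits Cdk9, had 14.6, 11.5 and 17.1 TPM. Larp7, which holds and stabilises 7SK RNA, had 5.18, 4.74 and 4.34 TPM, the lowest of all members. Mepce, which caps 7SK RNA, had 8.08, 4.67 and 8.30 TPM. No library of Hexim1, Larp7 or Mepce reached the lowest library of Ccnt1. In coding transcripts alone, chosen after seeing the data, Ccnt1 had 13.7, 10.8 and 13.0 TPM. Hexim1 was above that in every library. Hexim1 has 1 annotated transcript, so its value cannot depend on how reads were shared among isoforms of the gene.

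Among the pausing factors, the gene of the large DSIF subunit stood above the NELF genes. That of the small subunit, Supt4a, which is not a member, was below them at 3.88, 2.36 and 5.65 TPM in replicates 1, 2 and 3. Supt5, the large DSIF subunit, had 39.3, 45.7 and 44.5 TPM in replicates 1, 2 and 3. Of the NELF subunits, Nelfcd had 25.1, 23.1 and 21.9 TPM and Nelfe had 20.4, 14.0 and 15.2 TPM. Nelfa had 16.2, 9.28 and 14.5 TPM and Nelfb had 11.0, 11.6 and 12.9 TPM. No NELF gene overlapped Supt5, while Nelfa overlapped both Nelfb and Nelfe. Supt5 shares 433 exon bases with the antisense gene Gm44709 (10.2 ± 3.64 TPM), Nelfa shares 60 with Nsd2 (34.8 ± 4.11 TPM) and Nelfcd shares 10 with Ctsz (78.2 ± 27.2 TPM).

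The super elongation complex held the member with the widest spread. Ell2, which raises the elongation rate of Pol II, had 96.0, 37.2 and 40.8 TPM in replicates 1, 2 and 3, so 1 library was more than 2 fold above the others. Its relative Ell had 7.79, 8.70 and 10.8 TPM, with replicate 1 lowest. The log2 ratio of Ell2 to Ell was 3.62, 2.10 and 1.91, with a mean of 2.54 ± 0.94, or 5.83 fold. The mean without replicate 1 was 2.00. Ell2 shares 130 exon bases with the snoRNA gene Gm23127 on the same strand, which had 6.53 ± 11.3 TPM. It shares 94 with an antisense gene at 0 TPM. The part of these overlaps in the spread of Ell2 was not tested. In bulk RNA a different number of cells of one kind and a different amount of RNA per cell cannot be told apart. Aff1, a scaffold of the complex, had 89.1, 58.4 and 77.1 TPM, and Aff4, the other scaffold, had 72.3, 39.1 and 65.3 TPM. The log2 ratio of Aff4 to Aff1 was below 0 in every library at -0.30, -0.58 and -0.24. In the second quantification it was above 0 in every library, at 0.53, 0.40 and 0.66, so the order of these genes is not settled by these data. Aff4 averaged 138 ± 34.5 TPM there, above Ccnt2 (108 ± 19.4 TPM) and Cdk9 in mean TPM, with libraries that overlapped those of both.

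The later kinases were high while their shared cyclin was not. Cdk12 and Cdk13 phosphorylate the Pol II tail during elongation, and both pair with cyclin K. Cdk12 had 95.1, 59.7 and 78.7 TPM in replicates 1, 2 and 3. Cdk13 had 63.2, 48.6 and 56.4 TPM. The log2 ratio of Cdk12 to Cdk13 was 0.59, 0.30 and 0.48 (mean 0.46 ± 0.15), but 0.06 ± 0.041 in the second quantification. Ccnk, the cyclin K gene, had 16.7, 13.7 and 10.4 TPM. Its highest library was below the lowest library of either kinase. Cdk7, the kinase of the initiation factor TFIIH, had 31.6, 22.0 and 26.7 TPM.

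Genes of the PAF1 complex, which travels with elongating Pol II, fell into a higher and a lower set when every annotated form was counted. Paf1 had 58.5, 37.2 and 50.6 TPM and Cdc73, the tumour suppressor parafibromin, had 45.4, 26.5 and 34.3 TPM in replicates 1, 2 and 3. Ctr9 had 14.8, 10.4 and 15.6 TPM, Rtf1, which promotes ubiquitination of histone H2B, had 14.6, 9.79 and 13.8 TPM, and Leo1 had 9.38, 10.7 and 12.0 TPM. No library of Ctr9, Rtf1 or Leo1 reached the lowest library of Cdc73. In coding transcripts alone, chosen after seeing the data, the sets were not kept. Cdc73 had 4.85 ± 0.83 TPM there, below the means of Rtf1 (6.53 ± 1.34) and Leo1 (6.43 ± 1.30). Paf1 had 8.47 ± 2.73 TPM and overlapped Rtf1 and Leo1, and Ctr9 had 4.50 ± 1.42 TPM. With every annotated form counted, the histone chaperone genes lay closer together. Supt6, the SPT6 gene, had 24.1, 23.3 and 23.2 TPM, the smallest relative spread in TPM of any member. Supt16 had 22.7, 21.7 and 25.8 TPM and Ssrp1 had 26.1, 16.7 and 17.9 TPM. These 2 genes encode the subunits of FACT, which moves nucleosomes out of the path of the polymerase. In coding transcripts alone Supt6 had 22.1 ± 0.18 TPM, Supt16 17.3 ± 1.33 TPM and Ssrp1 6.82 ± 0.76 TPM.

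Mediator genes varied from one subunit to the next. In the kinase module, which joins the core complex and leaves it again, Med12 had 75.4, 60.0 and 82.4 TPM in replicates 1, 2 and 3, the highest of the Mediator members. Cdk8, the kinase, had 39.5, 30.4 and 41.9 TPM, whereas its cyclin Ccnc had 13.6, 10.9 and 11.5 TPM and did not overlap it. In coding transcripts alone, chosen after seeing the data, Ccnc averaged 6.69 ± 2.14 TPM and Cdk8 4.90 ± 0.67 TPM. The libraries of these genes overlapped there. Med13, which links the module to the core, had 43.9, 31.2 and 32.7 TPM, and its relative Med13l had 48.5, 27.9 and 41.2 TPM. Their log2 ratio was -0.15, 0.16 and -0.33, so the order of the pair changed between libraries. In the core, Med1, a contact of nuclear receptors, had 27.8, 25.3 and 26.6 TPM. Med23, a subunit of the tail, had 23.7, 18.2 and 21.9 TPM, Med24, also in the tail, had 17.3, 13.9 and 16.2 TPM, and Med14, the backbone, had 15.6, 13.1 and 14.5 TPM. Among 24 other Mediator genes the median was 7.03 TPM and 20 reached 1 TPM in every library. The highest of these was Med15 at 143 ± 28.7 TPM, above Med12, and the lowest was Med31 at 1.29 ± 0.46 TPM.

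Further partners were read from lists drawn from textbook composition. Of 13 other elongation and kinase partners 10 reached 1 TPM in every library, with a median of 7.59 TPM. Iws1, a partner of SPT6, was highest at 27.0 ± 4.48 TPM, and Aff3 was near 0. All 20 genes of Integrator and of termination reached 1 TPM in every library, with a median of 15.6 TPM. Xrn2, the exonuclease of termination, was highest there at 90.4 ± 18.0 TPM and Ints5 lowest at 2.45 ± 0.26 TPM (SD, n = 3).

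**Figure D2:**
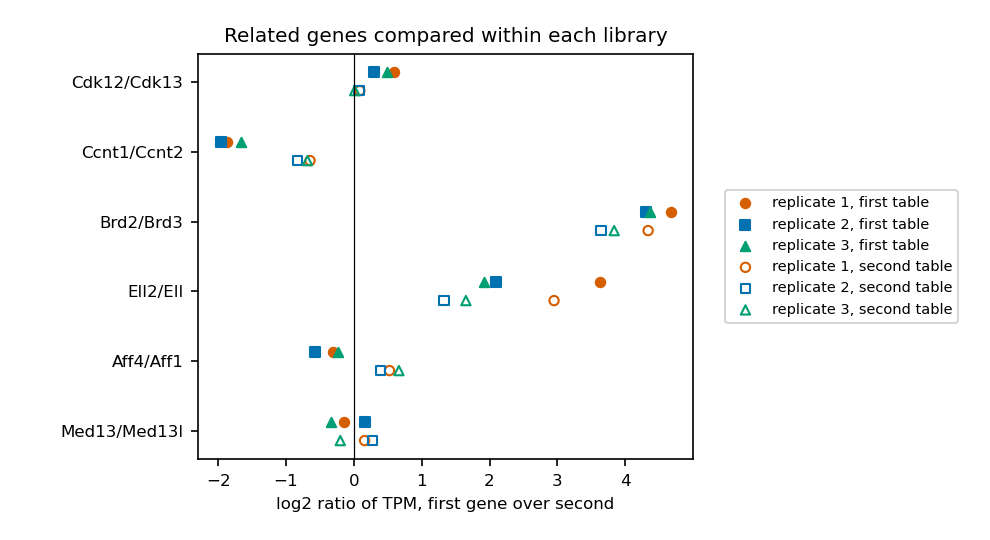
Log2 ratio of TPM within each library for 6 pairs of related genes, with filled points for the first and open points for the second quantification. Brd2/Brd3 and Ell2/Ell lie right of 0 and Ccnt1/Ccnt2 left of 0 in every library of both, while Aff4/Aff1 lies left of 0 in the first and right of 0 in the second.

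The spread between libraries was read from counts, which are not divided by the length of the isoforms. For each gene, log2 CPM (counts scaled to library size) was scaled with TMM factors, and the SD over the libraries was taken. The median SD of members was 0.143, against 0.190 for the 9540 protein-coding genes that averaged 50 counts or more, and 29 members were below that background median. The background was not matched to the members for level, and 35 of 41 members were above the median TPM of detected protein-coding genes. A smaller spread, here or in the fold counts below, therefore cannot be called particular to the list. No member differed by more than 2 fold between its highest and its lowest library (0 of 41), against 6.06% of the background. Without replicate 1 or replicate 2 that background share was 2.24% or 2.19%, so the gap to the members was smaller, and without replicate 2 the median SDs were 0.126 for members and 0.134 for the background. At more than 1.5 fold, 3 of 41 members did so, against 24.1% of the background. These were Ell2 (1.78 fold), Polr2c (1.55 fold) and Supt5 (1.52 fold).

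Ell2 had log2 CPM of 7.67, 6.86 and 6.84 in replicates 1, 2 and 3, so replicates 2 and 3 were close and replicate 1 was high. Polr2c had 2.87, 3.43 and 3.50, with replicate 1 low. Supt5 had 6.44, 7.04 and 6.68, with replicate 2 high. Replicate 1 thus lay apart from the others in Ell2 and Polr2c, in opposite directions, and was also the lowest in Supt5. Of the 41 members 15 were highest in replicate 1, 15 in replicate 2 and 11 in replicate 3, where the background shares were 32.1%, 39.6% and 28.3%.

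**Figure D3:**
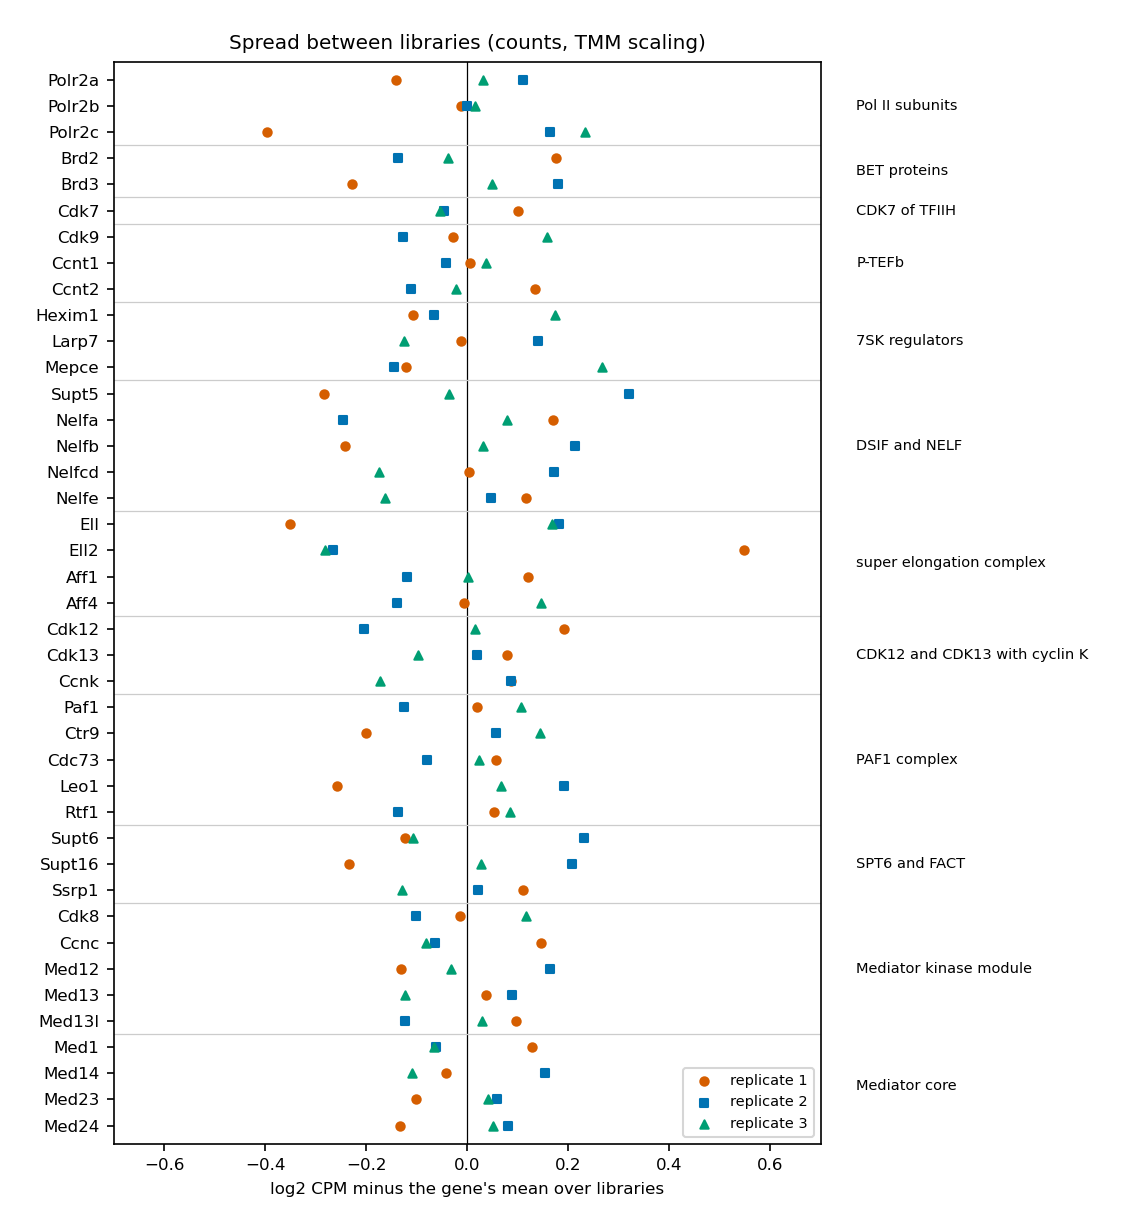
Difference of log2 CPM in each library from the gene's mean over 3 libraries, for the 41 members grouped by role. Points of Ell2, Polr2c, Supt5 and Ell reach farther than the rest, and replicate 1 of Ell2 lies farthest of all.

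TPM gave a wider spread than counts. The median member differed 1.45 fold between its highest and lowest library in TPM and 1.20 fold in CPM, and 28 members had the larger fold in TPM. Polr2b shows the contrast. Its 308, 525 and 364 counts gave log2 CPM of 4.46, 4.47 and 4.49, a 1.02 fold range and the smallest of any member, yet its TPM differed 2.16 fold. The retained-intron share of its TPM was 73.5, 60.9 and 78.0% in replicates 1, 2 and 3, so the library with the low TPM was also the one with the low share. The part of this share in the TPM value was not tested. By TPM, 2 of 41 members (Polr2b and Ell2) differed by more than 2 fold, against 12.1% of the background. Replicate 2 had the lowest TPM in 32 of 41 members, against 70.7% of the background, so this order is not particular to the list.

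The transcript tables show which annotated forms made up these levels. A retained-intron transcript is an annotated form that keeps an intron and has no coding frame in the annotation. Of the 41 members 33 have such a form and 8 (Polr2a, Brd3, Cdk12, Ccnc, Hexim1, Ssrp1, Ell and Med1) have none. The median share of TPM in retained-intron forms was 44.3% over the 33, against 46.9% over 6518 protein-coding genes at 1 TPM or more that have one. In 14 of the 33 the share was above 50%, against 45.3% of the background. The count is near the background and is no result about the list. Across the 33 genes, which are not independent replicates, the Spearman correlation of the share with the number of retained-intron forms listed for a gene was 0.55, and what lies behind it was not tested. TPM is scaled by length, so a short form gains more TPM from each read than a long one does.

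**Figure D4:**
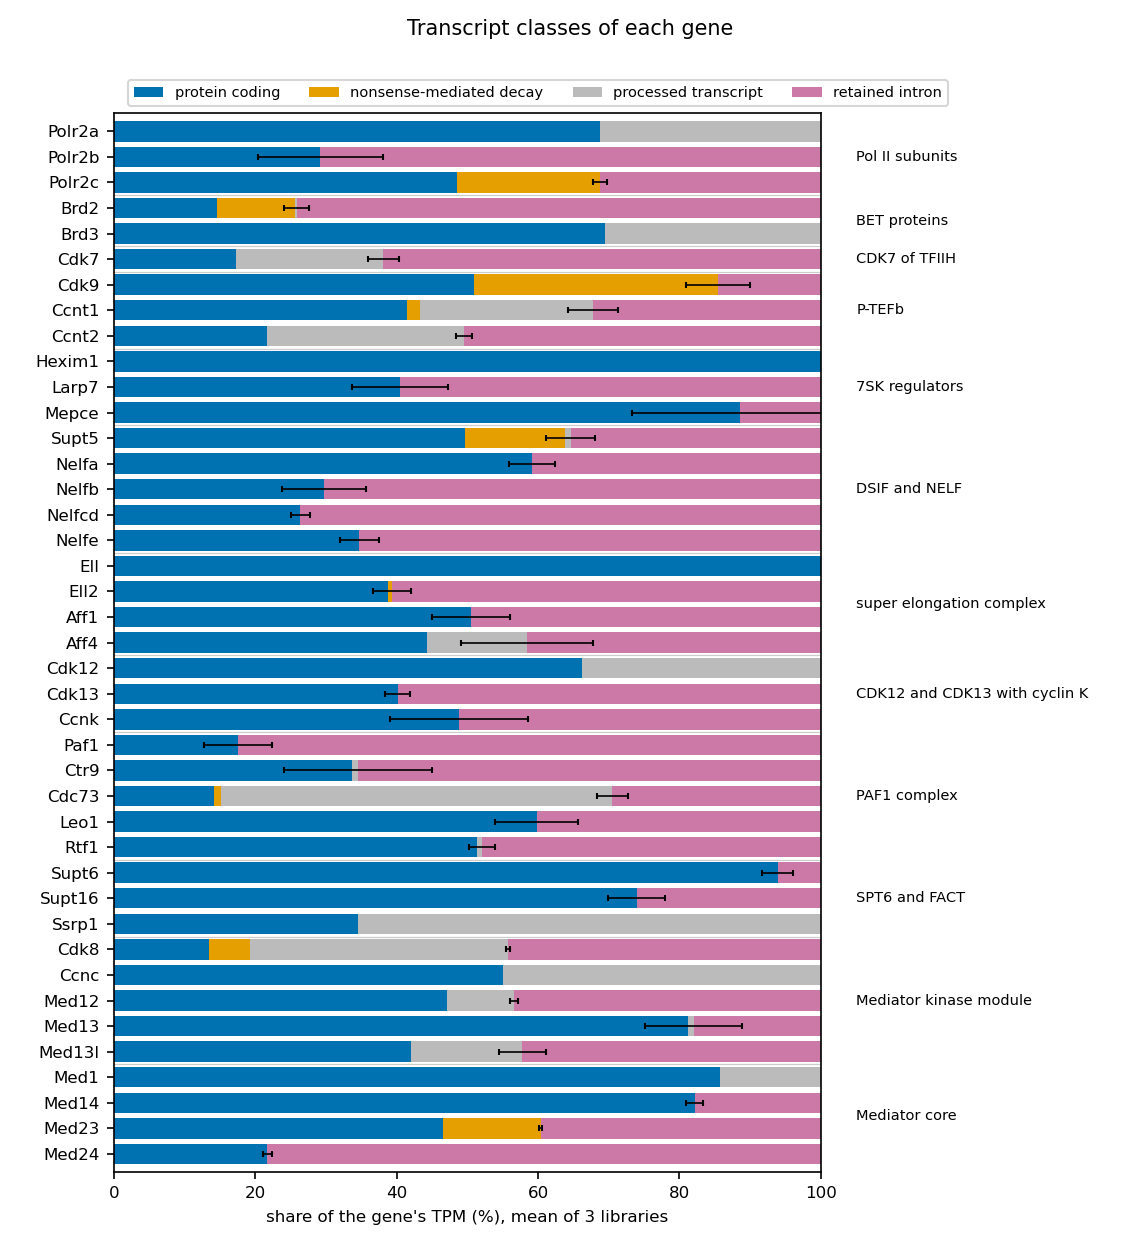
Share of each member's TPM in 4 annotated transcript classes, as the mean of 3 libraries, with bars showing the SD of the retained-intron share and ending at the axis limit for Mepce. Retained-intron forms hold 82.5% of Paf1 and 74.2% of Brd2, and coding forms hold all of Hexim1 and Ell.

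The share differed from gene to gene far more than from library to library. Paf1 had 86.9, 83.3 and 77.3% in replicates 1, 2 and 3 and Med24 had 77.6, 78.5 and 78.9%. Brd2 had 73.2, 76.2 and 73.1%, so the highest member by summed level was made mostly of such forms, and its coding forms held 14.6%. Nelfcd had 73.4, 75.2 and 72.5%. At the other end Supt6 had 8.45, 4.21 and 5.64%, and the 3 libraries of Supt6 lay below those of every other gene just named. The second transcript table gave other shares for several members, with 18.0% for Supt6, 53.4% for Nelfb and 80.2% for Ccnt1, which had 32.3 ± 3.54% in the first, and 24 of 33 shares moved by more than 1 SD. Among NELF genes Nelfcd (73.7 ± 1.36%), Nelfb (70.3 ± 5.90%) and Nelfe (65.3 ± 2.79%) were above Nelfa (40.9 ± 3.24%). Within Mediator, Med24 was above Med23 (39.6 ± 0.25%), Med13 (18.0 ± 6.88%) and Med14 (17.9 ± 1.25%). Mepce was unsteady with 28.8, 0 and 5.66%, from 204 to 339 counts.

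Leading forms were counted in the members only, so the split is not set against other genes and is no result about the list. For 23 members the most abundant single transcript was a coding one, for 12 a retained-intron one and for 5 a processed transcript, an annotated form with no coding frame. The remaining member was Cdk9. Its leading form by mean TPM, Cdk9-208, is annotated as a target of nonsense-mediated decay, the pathway that removes RNAs with an early stop. It had 47.6, 16.3 and 42.8 TPM in replicates 1, 2 and 3, with a mean of 35.6 ± 16.9 TPM (SD, n = 3). The main coding form had 36.2, 14.6 and 38.7 TPM, below it in every library but by less than that spread. A further coding form had 8.23, 25.7 and 20.1 TPM and led in replicate 2. Processed transcripts held most of Ssrp1 (65.5%) and of Cdc73 (55.4%). Coding forms held under 50% of the TPM in 24 of 41 members. That share was not taken over all protein-coding genes, so the count is no result about the list.

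Promoters were read as RefSeq sequence of GRCm38.p6, 250 bases before to 50 bases after a start site, and 39 entries matched 35 members. Nelfe, Nelfcd, Mepce, Ctr9, Med23 and Med24 had no entry. The 3 promoters below were chosen after the values were seen, for the member with the highest level (Brd2), the P-TEFb kinase (Cdk9) and the member with the widest spread (Ell2). Capitals mark matches to searched motifs, and bases are counted from 1 at the start of each window. In Ell2 (chr13:75707234-75707533, plus strand) the capitals are TGACGTCA, the palindrome of the cyclic AMP response element, at bases 53 to 60. In Cdk9 (chr2:32712735-32713034, minus strand) they are a loose NF-kB form at bases 32 to 41, which is GGGA and CC parted by 4 unspecified bases, and the ETS form CCGGAAGT at bases 249 to 256. In Brd2 (chr17:34121698-34121997, minus strand) they are the loose NF-kB form at bases 24 to 33, in the window of 1 of its 3 start sites.
Ell2: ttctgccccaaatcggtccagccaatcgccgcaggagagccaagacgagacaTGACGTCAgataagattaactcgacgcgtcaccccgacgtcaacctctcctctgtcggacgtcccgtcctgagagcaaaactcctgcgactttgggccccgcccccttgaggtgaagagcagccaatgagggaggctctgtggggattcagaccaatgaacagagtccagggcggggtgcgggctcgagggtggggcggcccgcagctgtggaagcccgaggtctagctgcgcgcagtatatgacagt
Cdk9: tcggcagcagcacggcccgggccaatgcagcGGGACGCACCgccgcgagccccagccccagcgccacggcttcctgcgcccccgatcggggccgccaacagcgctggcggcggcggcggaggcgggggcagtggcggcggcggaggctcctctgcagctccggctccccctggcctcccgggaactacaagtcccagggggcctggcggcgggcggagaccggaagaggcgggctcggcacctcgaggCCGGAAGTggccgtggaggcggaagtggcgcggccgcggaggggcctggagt
Brd2: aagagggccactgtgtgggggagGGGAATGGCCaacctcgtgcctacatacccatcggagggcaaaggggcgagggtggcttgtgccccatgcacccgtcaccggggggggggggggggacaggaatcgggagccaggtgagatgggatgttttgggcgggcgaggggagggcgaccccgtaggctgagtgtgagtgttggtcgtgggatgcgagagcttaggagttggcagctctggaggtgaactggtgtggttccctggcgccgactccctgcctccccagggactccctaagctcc

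Members had GC-rich promoters, with a median GC content of 65.7% and 29 CpG sites per window, against 57% and 14 over 19990 promoters of 16371 protein-coding genes. That background includes genes that were barely detected, and detected genes were not taken apart. The gap therefore cannot be called particular to the list. Each motif was searched on both strands. The loose NF-kB form was in 8 of 39 member promoters (20.5%), against 23.4% of all promoters of the same length. The ETS form CCGGAAGT was in 4 (10.3%), of Ccnt1, Cdk7, Cdk9 and Supt16, against 5.39%. The TGACGTCA element was in 2 (5.13%), of Ell2 and Larp7, against 2.33%. TATAAA, the TATA box, was in 3 (7.69%), of Polr2a, Polr2c and Nelfb, against 12.1%. The AP-1 form TGANTCA was in none, against 6.98%. With so few promoters these counts are a description of the windows, and a match is not a binding site.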

How the data were processed

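Each of the 3 libraries had a gene table and a transcript table of 1 layout, and a transcript table of another layout, called the first and second quantification here. Per the file headers, the authors' expected counts are estimates per gene or transcript that need not be whole, and the authors' deposited TPM values are scaled for effective length within a library. The values refer to mm10 and annotation M21, per the deposited notes, while the sources used here name neither the quantification programs nor the strand setting. Of all expected counts, 2.46, 0.484 and 0.327% in replicates 1, 2 and 3 lay on entries that are no gene, and these entries stayed out of library sizes. The second table lacked 86 genes, which were set to 0.

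Members and lists were chosen with earlier results of these data known. All 41 members are named, with the highest and lowest gene of each further list. Supt4a was named in addition after the values were seen. Gene identifiers were matched to the annotation for biotype and coordinates. Expected counts were rounded and scaled with TMM factors of edgeR 4.0.16 (1.03, 0.984 and 0.985; prior count 2), with DESeq2 1.42.0 size factors as an alternative, in R 4.3.3. The spread calculation was tested on simulated data. Levels used log2(TPM + 1). Class shares are TPM of transcripts of 1 biotype over the gene's TPM. Summaries used Python 3.11.15, pandas 2.3.3, numpy 2.4.6 and matplotlib 3.10.9. With 1 group no test was run, and a two-sided exact sign test over 3 libraries cannot go below p = 0.25. Promoters were to be shown for members over 2 fold between libraries by CPM. None was, so those shown were picked later. Protein sequences were not used here. Of the members 20 share exon bases with another gene, and Brd3, Cdk9, Med23 and Med24 do so only with genes at 0 TPM. An effect on the values was not tested, and the share over all protein-coding genes was not taken. Alternatives were other scalings, prior counts, filters and pseudocounts, the second quantification, and leaving out each replicate. Coding transcripts alone were added after seeing the data.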

Additional observations from a re-analysis of the deposited data

How the results depend on the processing

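The difference of 3.88 between members and protein-coding genes on the log2(TPM + 1) scale was 3.37 in the second quantification, 5.01 with a pseudocount of 0.1, 1.06 against genes of at least 1 TPM, 4.85 in CPM, 2.88 in coding transcripts alone, and 3.88 to 3.93 with 1 replicate left out. By log2(TPM + 1), 2 of 41 members differed over 2 fold, against 7.61% of the background (0 by CPM, against 6.06%). The median SD was 0.267, against 0.230 for the background, so members were the more variable by the median SD only. The retained-intron share of 44.3% was 48.3% in the second table (background 45.3%) and 56.7% with processed transcripts (background 53.0%). In the second quantification the log2 ratio of Aff4 to Aff1 reversed to 0.53, and those of Cdk12 to Cdk13, Ccnt1 to Ccnt2 and Brd2 to Brd3 were 0.0601, -0.72 and 3.94. In coding transcripts alone, chosen after seeing the data, the ratios were 1.18 (Cdk12/Cdk13), -0.88 (Ccnt1/Ccnt2), 2.18 (Brd2/Brd3), 1.17 (Ell2/Ell), -0.56 (Aff4/Aff1) and 0.85 (Med13/Med13l, which was -0.11). With 1 replicate left out Med13/Med13l ranged from -0.24 to 0.008 and Ell2/Ell from 2.00 to 2.86. Median TPM in the second quantification was 40.9 for CDK7, 10.7 for 7SK regulators, 20.2 for DSIF and NELF, 81.0 for the super elongation complex, 75.7 for CDK12 and CDK13, 21.3 for PAF1, 26.4 for SPT6 and FACT, 28.1 for core Mediator, 12.0 for other partners and 22.0 for Integrator and termination. In coding transcripts alone it was 5.74 for Pol II, 20.2 for BET proteins, 4.56 for CDK7, 23.0 for P-TEFb, 6.09 for 7SK regulators, 6.05 for DSIF and NELF, 24.3 for the super elongation complex, 22.5 for CDK12 and CDK13, 5.96 for PAF1, 17.3 for SPT6 and FACT, 16.2 for the kinase module and 10.8 for core Mediator. For these values the cause was not tested. With DESeq2 size factors, another prior count or no filter on counts, no member differed over 2 fold. The background shares were 6.03, 6.3 and 16.1% in that order. The members' median SD was 0.143 or 0.144. It was 0.123 in the second quantification. Of the 41 single-gene levels, 28 moved by more than 1 SD in the second quantification. There 11 were over 1.5 fold higher, among them Aff4 (138), Ccnt1 (66.1), Paf1 (89.5), Med1 (48.8) and Ell (16.3 TPM), and 0 were over 1.5 fold lower. The median fold of the second over the first was 1.26 for members and 1.34 for protein-coding genes of at least 1 TPM. A rise is therefore not particular to the list, and the counts were not taken over other genes. No paired analysis was possible because there is 1 group. Low counts limit Larp7 (85 to 160 counts) most.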
